A study of Mus musculus with 16 samples.

Results

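The genes described here are 10 negative feedback regulators of Wnt signalling, Axin2, Nkd1, Rnf43, Znrf3, Apcdd1, Notum, Wif1, Dkk2, Dkk3 and Sp5. They were taken as a list of symbols, and 10 of 10 were found among the 46078 genes counted in libraries of mouse intestinal organoids. Of those genes, 16510 held enough reads to be tested, these 10 included. Wif1, Dkk2 and Dkk3 passed the filter on low counts through the 2 untreated Apc mutant libraries alone, so their entry into the tests depended on the group in which they were highest.

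RNA was sequenced from crypts of C57BL6 mice grown as organoids in Matrigel with EGF, R-spondin and Noggin, in 16 libraries and 6 groups. In conditioned medium, which is medium taken from other organoid cultures and given fresh growth factors, there were 3 libraries labelled Apc mutant and 3 labelled WT on day 2, and 3 labelled Apc mutant and 3 labelled WT on day 4. There were 2 libraries of untreated Apc mutant organoids and 2 of untreated WT organoids, each on day 2. By its labels, the study held Apc mutant and WT libraries both without and with conditioned medium. Per the labels' protocols, WT organoids were Lgr5-EGFP-IRES-CreERT2 with a red mCherry construct. The mutants were Apcfl/fl organoids with the same tamoxifen-inducible Cre, which is made in Lgr5-expressing stem cells, and a green Venus construct. Genotype and fluorescent construct therefore cannot be told apart. A Villin-CreERT2 Apcfl/fl strain, whose Cre is made throughout the epithelium, is also listed, without saying which libraries came from it. The labels do not say whether libraries of a group came from separate animals or cultures, so a p-value measures the spread between these libraries, which may be technical.

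The treatment label names medium of Apc mutant cultures for all 12 conditioned medium libraries, whereas the growth protocol names medium of WT or of Apc mutant cultures. The APC and WT in the titles of these 12 libraries could stand for the cells or for the cultures that gave the medium, and the labels do not settle which. The levels given below go against the genotype label of the 6 conditioned medium libraries labelled Apc mutant, and these are called "labelled Apc mutant" throughout. Apc itself had 249 and 218 CPM in untreated Apc mutant organoids, against 69.3 and 76.2 CPM in untreated WT organoids. In conditioned medium it had 252 to 278 CPM in libraries labelled Apc mutant and 246 to 260 CPM in libraries labelled WT on day 2, and 266 to 281 CPM and 237 to 269 CPM in the same order on day 4. CPM is the usual count per 1000000 reads, here of the reads assigned to genes after scaling between libraries. Reads were counted over the whole gene, so the Apc level does not show the recombined part and checks nothing.

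Reads assigned to genes came to 17986815 to 29152692 in conditioned medium libraries and 8325979 to 13027701 in untreated libraries. The conditioned medium libraries differed from the untreated libraries in more than the medium. Histone genes summed to 4432 to 6164 CPM in conditioned medium libraries and to 41.5 to 46.3 CPM in untreated libraries, Xist stood at 1.17 to 11.4 CPM and 1940 to 3709 CPM, and the Y-linked Ddx3y at 86.9 to 129 CPM and 0 to 0.164 CPM, in the same order. Levels with and without conditioned medium are therefore set side by side with no test, since medium cannot be told apart from these differences. The label difference was tested between the media, with the same limit. The labelled tissue was checked against 10 epithelial markers, which summed to 3627 to 7851 CPM in the 16 libraries. Summed markers of stroma reached at most 3.17 CPM, those of immune cells 7.89 CPM and those of endothelium and neurons 4.83 CPM. Among them Col3a1, Dcn, Lum, Thy1 and Cdh5 were at 0 in all 16 libraries.

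Wnt ligands stabilise beta-catenin, which turns on target genes together with TCF and LEF factors, and Apc is part of the complex that marks beta-catenin for destruction. Several of the targets act back on the pathway as brakes, inside the cell, at the receptor or on the secreted ligand. In the intestinal crypt Wnt signalling maintains the stem cells, and R-spondin, which these cultures contained, counters the brake at the receptor by clearing Rnf43 and Znrf3 from the cell surface.

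Promoter windows, the 250 bases before an annotated transcription start, were taken from RefSeq (GRCm38.p6), which gave 7 windows for 6 of the 10 genes (Axin2, Nkd1, Wif1, Dkk2, Sp5 and Rnf43, with 2 for Rnf43). Notum, Dkk3, Znrf3 and Apcdd1 had no entry. Both strands were searched for the 7-letter TCF/LEF core NNCAAAG, where NN is AA, AT, TA or TT, which makes 4 spellings. Sp5, a transcription factor induced by Wnt, had matches, and its window is shown beside that of Axin2, the most abundant of the 10 genes per length in untreated Apc mutant organoids, which had none. Capitals mark the matches, and both windows lie on the + strand and end at the base before the annotated gene.
Sp5 (chr2:70474673-70474922): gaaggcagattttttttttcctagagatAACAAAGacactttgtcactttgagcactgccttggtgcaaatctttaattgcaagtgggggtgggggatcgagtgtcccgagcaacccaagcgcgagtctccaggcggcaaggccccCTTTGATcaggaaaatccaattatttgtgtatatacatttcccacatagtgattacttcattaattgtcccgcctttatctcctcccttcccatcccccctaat
Axin2 (chr11:108920099-108920348): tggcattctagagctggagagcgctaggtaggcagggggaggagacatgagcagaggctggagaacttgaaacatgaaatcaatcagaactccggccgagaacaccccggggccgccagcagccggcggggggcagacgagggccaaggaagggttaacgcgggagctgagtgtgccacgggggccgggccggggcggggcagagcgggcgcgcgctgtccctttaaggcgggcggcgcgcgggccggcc
The Sp5 matches were AACAAAG, 222 to 216 bases before the start, and CTTTGAT, which reads ATCAAAG on the other strand, 104 to 98 bases before it. Of all 32851 RefSeq mouse windows of this length, 14.8% held at least 1 match and 1.43% at least 2. The other 6 windows of these genes held none, which says only that these letters are not in those 250 bases.

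In untreated organoids on day 2, 9 of the 10 genes were higher in Apc mutant than in WT organoids, and the exception was Dkk3. Of the 9, Wif1 and Dkk2 passed the filter on low counts through the untreated Apc mutant libraries alone, so their calls lend this count no support. Axin2, Nkd1, Rnf43, Znrf3, Apcdd1, Notum and Sp5 were called without that dependence. Of all genes tested, 62.5% passed the threshold in this comparison, an adjusted p under 0.05, with 32.4% higher and 30.1% lower. The 10 genes differed widely in size of change: Znrf3, Axin2, Rnf43 and Sp5 were 3.58-fold to 6.65-fold higher, while Apcdd1, Nkd1 and Notum were 161-fold to 994-fold higher. The median log2 fold change over the 10, with Wif1, Dkk2 and Dkk3 included, was 3.60 with Dkk2 at its lower bound, beside 0 over all genes tested. The sum of the epithelial markers was lower at the same time, at 3627 and 3963 CPM in untreated Apc mutant organoids, against 6130 and 6688 CPM in untreated WT organoids. Its part in these differences was not tested, and in such bulk libraries fewer cells of a type cannot be told apart from less RNA per cell.

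The intracellular brakes were the 2 genes Axin2 and Nkd1. Axin2 (ENSMUSG00000000142, chr11:108920349-108950783, GRCm38), a scaffold of the beta-catenin destruction complex, had 672 and 777 CPM in untreated Apc mutant organoids, against 174 and 156 CPM in untreated WT organoids. The groups lay far apart against the spread within each, and the log2 fold change was 2.13 (SE 0.08, adjusted p = 7.3e-18, quasi-likelihood test of edgeR, with p adjusted over all genes tested after Benjamini and Hochberg, as for each adjusted p below). Nkd1 (ENSMUSG00000031661, chr8:88521354-88594884), which binds Dishevelled and damps the signal passed on from the receptor, had 440 and 533 CPM in untreated Apc mutant organoids, against 1.80 and 1.31 CPM in untreated WT organoids. Nkd1 was low in both untreated WT libraries, though each passed the cutoff of the filter on low counts, and it was 305-fold higher in untreated Apc mutant organoids (log2 8.25, SE 0.15, adjusted p = 4.3e-24). Per length the ratio of Nkd1 to Axin2 (CPM divided by exon length in kilobases, RPKM) averaged 0.810 in untreated Apc mutant organoids and 0.0113 in untreated WT organoids. An antisense gene, Gm11670, shares 209 exon bases with Axin2 and had 0 counts in all 4 untreated libraries.

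At the cell membrane, Rnf43 and Znrf3 are ubiquitin ligases that remove Frizzled receptors from the surface. Rnf43 (ENSMUSG00000034177, chr11:87662722-87735539) had 513 and 556 CPM in untreated Apc mutant organoids, against 79.6 and 81.2 CPM in untreated WT organoids. Znrf3 (ENSMUSG00000041961, chr11:5276324-5444847) had 104 and 97.9 CPM in untreated Apc mutant organoids, against 24.9 and 27.0 CPM in untreated WT organoids. Neither gene's groups overlapped. How many of all genes had such groups was not counted, so a lack of overlap, here and below, only describes the values. The log2 fold changes were 2.73 (SE 0.07, adjusted p = 3.7e-21) for Rnf43 and 1.97 (SE 0.08, adjusted p = 4.1e-17) for Znrf3. Per length, Rnf43 was 6.38 times as abundant as Znrf3 in untreated Apc mutant organoids (5.93 and 6.83) and 3.73 times in untreated WT organoids (3.63 and 3.84). Apcdd1 (ENSMUSG00000071847, chr18:62922231-62961179), a membrane protein that binds Wnt and its co-receptor, had 85.6 and 97.3 CPM in untreated Apc mutant organoids, against 0.654 and 0.436 CPM in untreated WT organoids. The WT levels rest on 8 and 4 reads, and the log2 fold change was 7.33 (SE 0.24, adjusted p = 7.8e-19).

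The secreted inhibitors were Notum, Wif1, Dkk2 and Dkk3. Notum (ENSMUSG00000042988, chr11:120653788-120661175), a carboxylesterase that strips the lipid Wnt needs for receptor binding, had 258 and 312 CPM in untreated Apc mutant organoids, against 0.327 and 0.218 CPM in untreated WT organoids. These are 3719 and 5105 reads against 4 and 2 reads. The log2 fold change of 9.96 (SE 0.21, adjusted p = 1.5e-22) ranked Notum 34th from the highest of the 16510 genes. The ratio of summed counts was 1023, with an exact 95% interval of 470 to 2787 that covers counting error only. That interval is wider than the one from the SE (log2 9.48 to 10.43), so the SE understates the uncertainty here. Per length, Notum averaged 118 RPKM in untreated Apc mutant organoids, beside 132 RPKM for Axin2, 107 RPKM for Nkd1 and 81.5 RPKM for Rnf43, and 0.113 RPKM in untreated WT organoids. The antisense genes Notumos and Myadml2os share 708 and 210 exon bases with Notum. Notumos had 133 and 166 reads in untreated Apc mutant organoids and 0 in untreated WT organoids. No source used here gives the strand setting of the counting, so reads of Notum and of these partners cannot be told apart.

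Wif1 (ENSMUSG00000020218, chr10:121033960-121100650), which binds Wnt ligands outside the cell, had 34.3 and 33.8 CPM in untreated Apc mutant organoids, against 0.0818 and 0 CPM in untreated WT organoids. The WT side was a single read, and the ratio of summed counts was 728, with an exact 95% interval of 130 to 28784 (adjusted p = 3.5e-17). Dkk2 (ENSMUSG00000028031, chr3:132085292-132180304), a Dickkopf protein that binds the Wnt co-receptors Lrp5 and Lrp6, had 52 and 42 reads (3.60 and 2.57 CPM) in untreated Apc mutant organoids and none in the other 14 libraries. Set against a floor of 3 reads over the group, Dkk2 was at least 22.0-fold higher in untreated Apc mutant than in untreated WT organoids. This bound takes the mutant mean as exact. The edgeR call of Dkk2 (adjusted p = 4.1e-06) rests on the fitted fold change and not on this bound. DESeq2 did not call Dkk2, with an adjusted p of 0.28. Dkk3 (ENSMUSG00000030772, chr7:112116017-112159057), a divergent Dickkopf relative, had 6 and 10 reads in untreated Apc mutant organoids, against 2 and 0 reads in untreated WT organoids. Its ratio of summed counts was 5.56 (exact 95% interval 1.31 to 49.9), and it did not pass the threshold (adjusted p = 0.057).

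Sp5 (ENSMUSG00000075304, chr2:70474923-70477729), the transcription factor of the set, represses Wnt target genes. Sp5 had 10.5 and 11.7 CPM in untreated Apc mutant organoids, against 3.76 and 2.29 CPM in untreated WT organoids. The groups did not overlap, and the log2 fold change of 1.84 (SE 0.22, adjusted p = 6.3e-08) was the smallest among the 9 genes that passed.

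**Figure D1:**
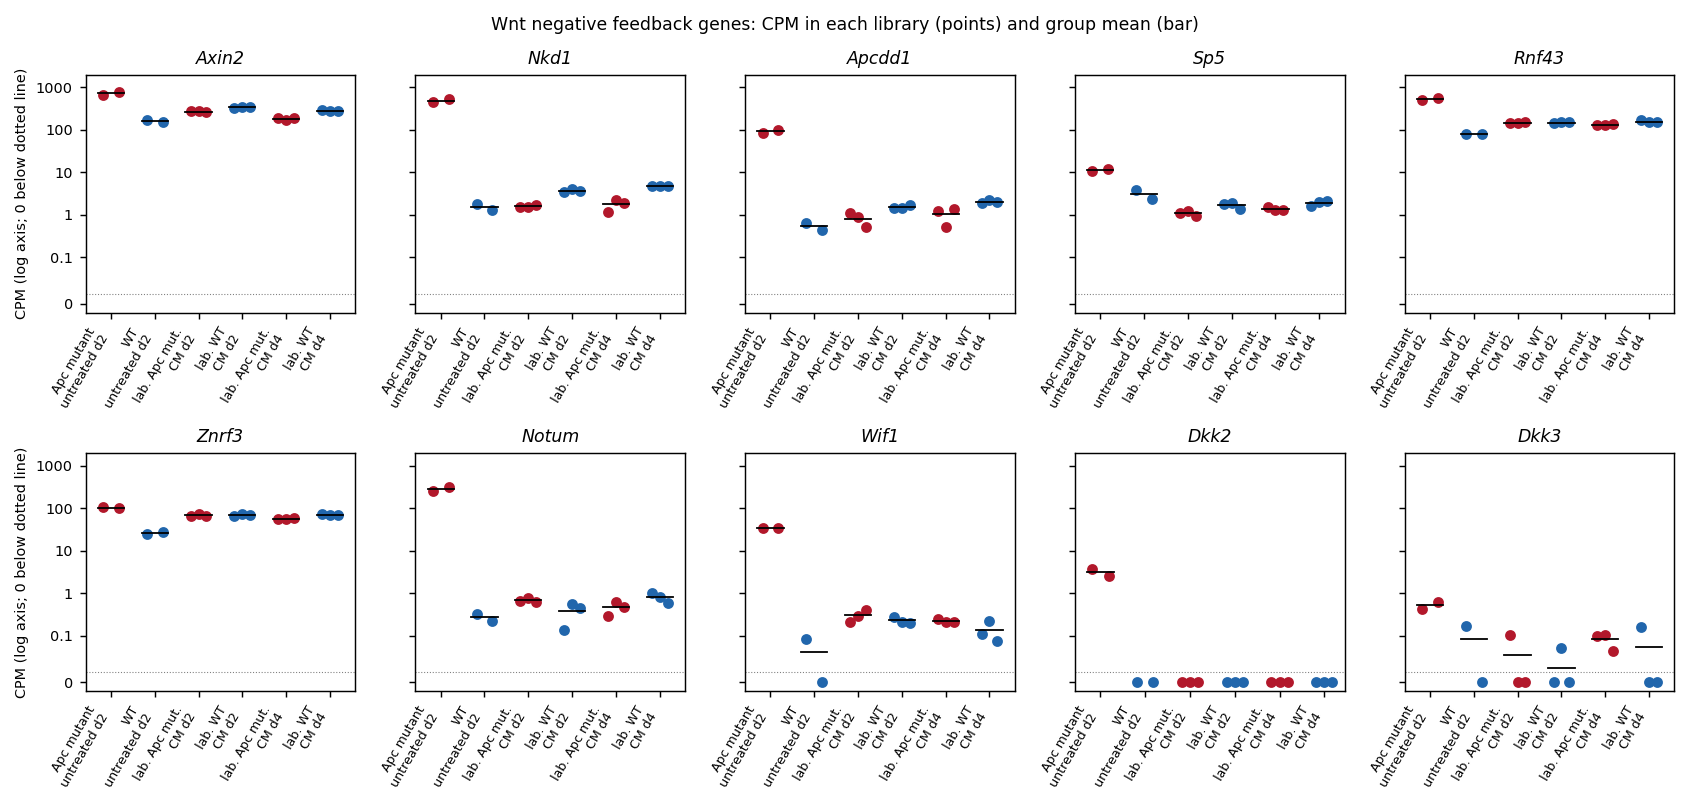
CPM of each of the 10 genes (log axis, with 0 drawn below the dotted line) in the 16 libraries, in 6 groups along the horizontal axis; points are libraries and bars are group means. The untreated Apc mutant libraries stand highest for each gene, and for Notum, Wif1 and Dkk2 no library of the other 5 groups exceeds 1.03 CPM.

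Other genes of the pathway were taken as 3 lists, whose counts in untreated organoids stand beside the 62.5% of all genes that passed, 32.4% higher and 30.1% lower. Of 24 other Wnt antagonists and feedback inhibitors, 10 were tested, and in untreated organoids 5 were higher and 1 was lower in Apc mutant than in WT organoids, with a median log2 fold change of 0.88. With 6 of 10 called, this list was near the share over all genes. Sfrp5, a secreted Wnt-binding protein, had 22 reads in untreated Apc mutant organoids and 3 in untreated WT organoids. The ratio was 5.10, with an exact 95% interval of 1.53 to 26.6. Sfrp5 passed the filter on low counts through the untreated Apc mutant libraries alone, so its call lends this count no support. Dact2, which acts on Dishevelled, averaged 42.1 CPM in untreated Apc mutant organoids and 11.2 CPM in untreated WT organoids (log2 1.89, SE 0.14, adjusted p = 1.9e-11). The lower gene was Ctnnbip1, which binds beta-catenin and keeps it from TCF (log2 -0.37, SE 0.10, adjusted p = 0.0029); it is named outside the naming rule, as the single fall in the list.

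Of 14 other Wnt/beta-catenin target genes, 14 were tested, and 13 were higher and 0 lower in untreated Apc mutant organoids, with a median log2 fold change of 1.36. Prox1, a homeobox transcription factor, averaged 968 CPM in untreated Apc mutant organoids and 3.73 CPM in untreated WT organoids (log2 7.98, SE 0.12, adjusted p = 1.5e-25). Lef1, a DNA-binding partner of beta-catenin, had 757 reads in untreated Apc mutant organoids and 1 in untreated WT organoids, a ratio of 526 with an exact 95% interval of 94.2 to 20819. Of 21 genes of the receptor complex and R-spondin system, 16 were tested, and 8 were higher and 3 lower, with a median log2 fold change of 0.46. These 11 of 16 were also near the share over all genes. Fzd10, a Wnt receptor, had 107 reads in untreated Apc mutant organoids and 0 in untreated WT organoids. Against a floor of 3 reads over the group it was at least 24.9-fold higher. Fzd10 passed the filter on low counts through the untreated Apc mutant libraries alone, so its call lends the count of receptor genes no support. Fzd5, another Wnt receptor, averaged 11.3 CPM in untreated Apc mutant organoids and 140 CPM in untreated WT organoids (log2 -3.64, SE 0.08, adjusted p = 1.7e-22).

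In conditioned medium on day 2, none of the 10 genes was higher in libraries labelled Apc mutant than in libraries labelled WT, and 3 were lower: Axin2, Nkd1 and Apcdd1. Of all genes tested, 16.7% passed the threshold, 8.54% higher and 8.15% lower. Dkk2 had no reads in these libraries and Dkk3 had 2 reads in the libraries labelled Apc mutant and 1 in those labelled WT, so neither has an estimate. The median log2 fold change over the other 8 was -0.20, beside 0 over all genes tested.

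Axin2 had 281, 271 and 256 CPM in the day 2 libraries labelled Apc mutant, against 334, 353 and 350 CPM in those labelled WT. The 3 labelled Apc mutant were below the 3 labelled WT, with a log2 fold change of -0.36 (SE 0.06, adjusted p = 1.2e-04). Nkd1 had 1.54, 1.56 and 1.72 CPM in libraries labelled Apc mutant, against 3.36, 4.04 and 3.58 CPM in libraries labelled WT. The groups did not overlap either, with a log2 fold change of -1.18 (SE 0.19, adjusted p = 6.9e-05), and the libraries labelled Apc mutant lay within the 1.31 to 1.80 CPM of untreated WT organoids. Apcdd1 had 1.07, 0.869 and 0.507 CPM in libraries labelled Apc mutant, against 1.47, 1.43 and 1.69 CPM in libraries labelled WT. Its log2 fold change was -0.91 (SE 0.28, adjusted p = 0.03), and it rested on 46 reads in the libraries labelled Apc mutant and 94 in those labelled WT. The call for Apcdd1 was lost without replicate 2 (adjusted p = 0.053) or 3 (0.2) of the libraries labelled Apc mutant, and without replicate 1 (0.06) or 3 (0.096) of those labelled WT.

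The other genes did not pass on day 2. Sp5 had 1.13, 1.22 and 0.913 CPM in libraries labelled Apc mutant, against 1.84, 1.89 and 1.39 CPM in libraries labelled WT, groups that did not overlap (log2 -0.66, SE 0.24, adjusted p = 0.062). It passed without replicate 3 of the libraries labelled WT on day 2 (adjusted p = 0.048), and without replicate 4 (0.05, under the threshold before rounding) or 5 (0.049) of the untreated WT libraries. Notum had 0.665, 0.753 and 0.608 CPM in libraries labelled Apc mutant, against 0.138, 0.562 and 0.448 CPM in libraries labelled WT. These groups did not overlap either, with the higher values in libraries labelled Apc mutant (log2 0.83, SE 0.41, adjusted p = 0.18). These Notum levels rest on 12 or 13 reads and on 3 to 11 reads per library, in the same order. For the receptor ligases the intervals were narrow. Rnf43 had 146, 144 and 151 CPM in libraries labelled Apc mutant, against 141, 152 and 149 CPM in libraries labelled WT, and the 95% interval of the log2 fold change ran from -0.12 to 0.11. Znrf3 had 65.5, 70.8 and 66.9 CPM in libraries labelled Apc mutant, against 66.8, 71.8 and 70.3 CPM in libraries labelled WT, with an interval of -0.16 to 0.08. Wif1 stood at 4 to 8 reads per library in libraries labelled Apc mutant and 4 to 6 in libraries labelled WT, a ratio of summed counts of 1.32 with an exact 95% interval of 0.612 to 2.89.

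On day 4 in conditioned medium, 5 of the 10 genes were lower in libraries labelled Apc mutant than in libraries labelled WT, Axin2, Nkd1, Rnf43, Znrf3 and Apcdd1, and none was higher. Of all genes tested, 15.6% passed the threshold, 7.83% higher and 7.8% lower. Over the 9 genes with an estimate the median log2 fold change was -0.49, beside 0 over all genes tested.

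Axin2 had 189, 171 and 189 CPM in the day 4 libraries labelled Apc mutant, against 290, 280 and 274 CPM in those labelled WT. The gap between the groups was several times their ranges, with a log2 fold change of -0.62 (SE 0.06, adjusted p = 5.5e-08). Nkd1 had 1.17, 2.17 and 1.94 CPM in libraries labelled Apc mutant, against 4.72, 4.66 and 4.66 CPM in libraries labelled WT (log2 -1.40, SE 0.17, adjusted p = 1.2e-06). This was the largest called fall among the 10 genes on either day. Rnf43 had 131, 130 and 135 CPM in libraries labelled Apc mutant, against 166, 154 and 150 CPM in libraries labelled WT (log2 -0.24, SE 0.05, adjusted p = 0.0016). Znrf3 had 56.0, 54.6 and 58.5 CPM in libraries labelled Apc mutant, against 72.4, 67.5 and 67.7 CPM in libraries labelled WT (log2 -0.29, SE 0.05, adjusted p = 4.1e-04). Both ligases were thus lower in 3 of 3 libraries, at 0.845 (Rnf43) and 0.816 (Znrf3) of their level in libraries labelled WT. Apcdd1 had 1.22, 0.516 and 1.35 CPM in libraries labelled Apc mutant, against 1.84, 2.19 and 2.03 CPM in libraries labelled WT (log2 -0.95, SE 0.24, adjusted p = 0.0077). Its call was lost without replicate 2 of the libraries labelled Apc mutant (adjusted p = 0.058), which had the 0.516 CPM. Replicate 1 of the libraries labelled WT on day 4 stood apart from the other 2 over all genes, and without it the 5 genes were still called, with log2 fold changes of -0.60 (Axin2), -1.40 (Nkd1), -0.20 (Rnf43), -0.26 (Znrf3) and -0.997 (Apcdd1).

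Sp5 and Notum did not pass on day 4. Sp5 had 1.52, 1.29 and 1.27 CPM in libraries labelled Apc mutant, against 1.63, 1.97 and 2.07 CPM in libraries labelled WT. Its groups did not overlap (log2 -0.49, SE 0.22, adjusted p = 0.14). Notum had 0.293, 0.620 and 0.464 CPM in libraries labelled Apc mutant, against 1.03, 0.806 and 0.591 CPM in libraries labelled WT, groups that overlapped (log2 -0.77, SE 0.36, adjusted p = 0.16). Wif1 had 14 reads over the libraries labelled Apc mutant and 9 over those labelled WT, and Dkk3 had 5 and 3 in the same order, ratios of 1.66 and 1.78 whose exact 95% intervals ran from 0.670 to 4.35 and from 0.346 to 11.5. Beside these falls, epithelial markers summed on day 4 to 7576 to 7851 CPM in libraries labelled Apc mutant and 6976 to 7150 CPM in libraries labelled WT. The 9 stromal markers summed to 2.64 to 3.17 CPM and 1.40 to 1.90 CPM, the 9 immune markers to 4.30 to 5.01 CPM and 4.61 to 5.51 CPM, and the 6 endothelial and neuronal markers to 2.19 to 3.72 CPM and 3.58 to 4.83 CPM, in the same order. The stromal sum was mostly Pdgfrb, at 2.68 and 1.33 CPM, while Pdgfra (0.159 and 0.218 CPM) and Col1a1 (0.109 and 0.121 CPM) went the other way. The endothelial and neuronal sum was mostly Tubb3, at 1.76 and 3.51 CPM. The part of these marker sums in the results was not tested.

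**Figure D2:**
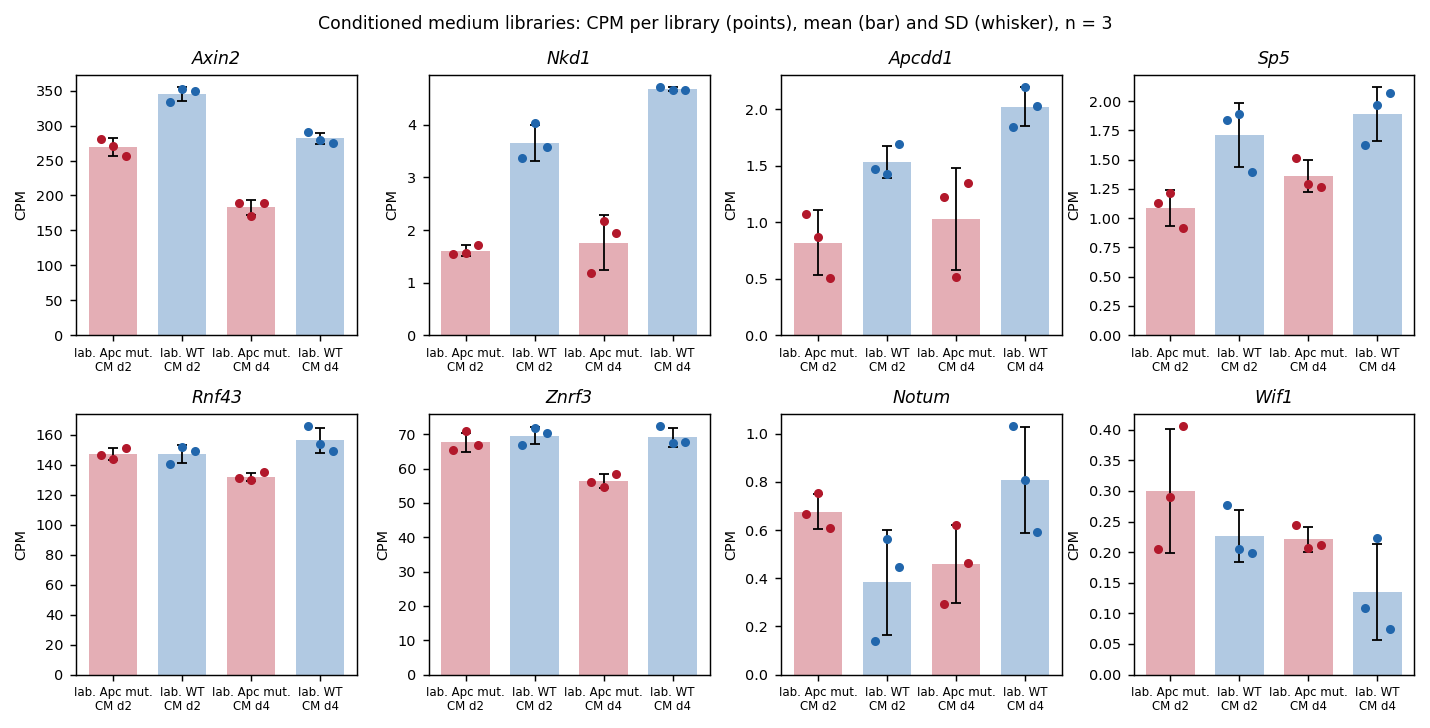
CPM of 8 of the genes in the conditioned medium libraries (vertical axis from 0, one scale per gene), with points for libraries, bars for means and whiskers for the SD of 3 libraries. Axin2, Nkd1 and Apcdd1 are lower in the libraries labelled Apc mutant on day 2 and on day 4, and Rnf43 and Znrf3 separate by label on day 4.

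**Figure D3:**
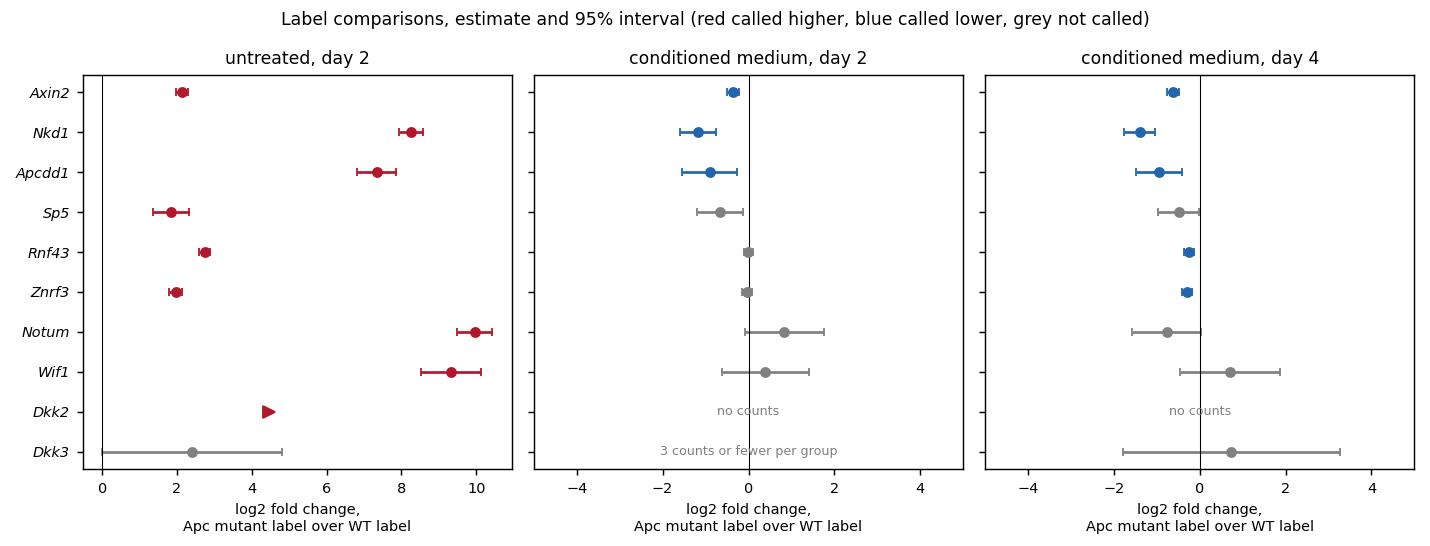
Log2 fold change of Apc mutant over WT label for the 10 genes (horizontal axis, with its own scale for the untreated panel), with 95% intervals from the SE. The triangle is the lower bound for Dkk2. In the untreated panel the intervals of Nkd1, Apcdd1, Notum and Wif1 are narrower than counting error alone. Apcdd1, Nkd1 and Notum lie between 7.33 and 9.96 in untreated organoids, and the 5 genes called on day 4 in conditioned medium lie between -1.40 and -0.24.

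The same lists were counted in conditioned medium, where 16.7% of all genes passed on day 2 (8.54% higher and 8.15% lower) and 15.6% on day 4 (7.83% higher and 7.8% lower). Among the 10 tested antagonists, 1 was higher and 1 lower on day 2, and 0 were higher and 2 lower on day 4, with median log2 fold changes of -0.09 and of -0.28 (9 genes with more than 3 reads in a group). On day 2 these were Igfbp4, a secreted protein that also binds insulin-like growth factors (log2 0.51, SE 0.13, adjusted p = 0.0092), and Ctnnbip1 (log2 -0.22, SE 0.07, adjusted p = 0.04). On day 4 they were Shisa2, which retains Frizzled receptors in the endoplasmic reticulum (log2 -0.41, SE 0.08, adjusted p = 6.0e-04), and Tmem131l (log2 -0.40, SE 0.06, adjusted p = 1.1e-05). Among the 14 tested target genes, 2 were higher and 5 lower on day 2, and 1 was higher and 7 lower on day 4, with median log2 fold changes of -0.09 and -0.45. Tnfrsf19, a receptor of the tumour necrosis factor family, had the largest change on both days, with 6.91 CPM in libraries labelled Apc mutant and 13.2 CPM in libraries labelled WT on day 2 (log2 -0.93, SE 0.12) and 3.87 CPM and 11.8 CPM on day 4 (log2 -1.59, SE 0.13). Lgr5, a receptor for R-spondin found on stem cells of the crypt, came next, at 106 CPM in libraries labelled Apc mutant and 154 CPM in libraries labelled WT on day 2 (log2 -0.54, SE 0.06) and 95.8 CPM and 162 CPM on day 4 (log2 -0.76, SE 0.06). The adjusted p of these 4 Tnfrsf19 and Lgr5 values lay between 3.3e-09 and 2.5e-06. Among the 16 tested receptor genes, 1 was higher and 2 lower on day 2, and 2 were higher and 1 lower on day 4, with medians of -0.15 and -0.04 over the 15 with an estimate. The 2 of 10 antagonists and 3 of 16 receptor genes called on each day were near the shares over all genes. Fzd2 was lower on both days (log2 -0.57, SE 0.12, and -0.74, SE 0.13). Rspo4, an R-spondin, was higher on both days, at 2.59 CPM in libraries labelled Apc mutant and 0.666 CPM in libraries labelled WT on day 2 and at 3.17 CPM and 1.93 CPM on day 4 (log2 1.96, SE 0.25, and 0.71, SE 0.20).

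**Figure D4:**
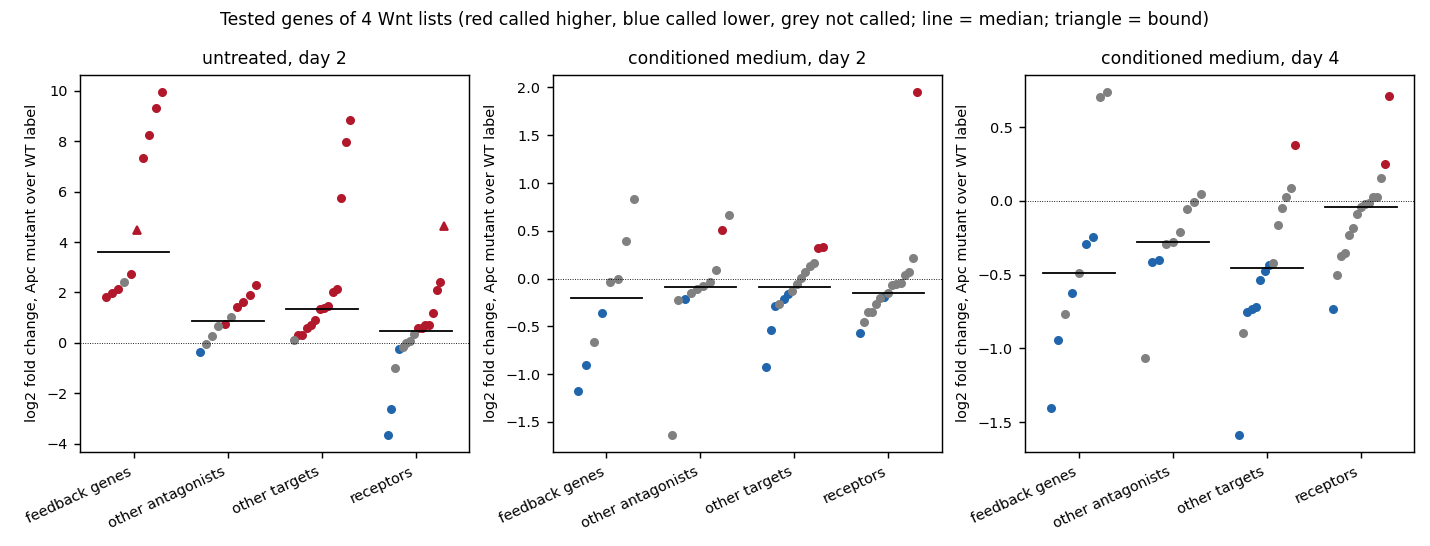
Log2 fold change of Apc mutant over WT label (vertical axis, scaled per panel) for the tested genes of the 4 lists in the 3 label comparisons, in ascending order within a list; lines are medians, triangles are bounds, and genes with 3 reads or fewer in both groups are left out. In untreated organoids the other targets have a median of 1.36, and in conditioned medium on day 4 one of -0.45.

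The conditioned medium libraries of day 2 and those of day 4 carry sample numbers in separate ranges. Day therefore cannot be told apart from any batch that goes with these ranges, for either label or for the interaction with day below. Between day 2 and day 4 in conditioned medium, 3 of the 10 genes fell in the libraries labelled Apc mutant, where 23.9% of all genes passed, 12.2% higher and 11.7% lower. With 3 of 10 called, the genes were near the share over all genes that passed. Axin2 was 183 ± 11 CPM on day 4 and 269 ± 12 CPM on day 2 in these libraries (SD, n = 3 each; log2 -0.56, SE 0.06, adjusted p = 2.4e-07). Znrf3 was 56.4 ± 2.0 CPM on day 4 and 67.7 ± 2.8 CPM on day 2 (log2 -0.26, SE 0.05, adjusted p = 8.9e-04). Rnf43 was 132 ± 2.8 CPM on day 4 and 147 ± 3.9 CPM on day 2 (log2 -0.16, SE 0.05, adjusted p = 0.029). For Axin2, Znrf3 and Rnf43 the days did not overlap. Nor did they for Sp5, which was higher on day 4 without passing (log2 0.33, SE 0.25, adjusted p = 0.39). The call for Rnf43 was lost with no filter on low counts (adjusted p = 0.063). It was also lost without replicate 1 (0.06) or 3 (0.1) on day 2 or replicate 1 (0.082) or 2 (0.098) on day 4 of these libraries.

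In the libraries labelled WT, 24.1% of all genes passed between the days, 12.5% higher and 11.6% lower, and 2 of the 10 genes were among them. These 2 of 10 were near the share over all genes. Axin2 fell, with 282 ± 8.1 CPM on day 4 and 346 ± 9.8 CPM on day 2 (SD, n = 3 each; log2 -0.30, SE 0.06, adjusted p = 7.4e-04). Notum was higher on day 4, with 53 reads on day 4 and 23 on day 2 (log2 1.05, SE 0.38, adjusted p = 0.047), and this call held in 12 of 22 alternatives. It was lost under library totals alone (adjusted p = 0.055), when only the groups compared were fitted (0.07), without replicate 1 (0.27) or 3 (0.065) of the libraries labelled WT on day 2, and without replicate 1 (0.16) or 2 (0.097) of those on day 4. It was also lost without any one of the 3 libraries labelled Apc mutant on day 2 (0.053 to 0.055) and without replicate 3 of those on day 4 (0.054). Nkd1 averaged 4.68 CPM on day 4 and 3.66 CPM on day 2 without passing (log2 0.36, SE 0.14, adjusted p = 0.074), and passed in 4 of 22 alternatives: with no filter on low counts (0.037), without replicate 1 of the libraries labelled Apc mutant on day 4 (0.046), and without replicate 4 (0.043) or 5 (0.047) of the untreated Apc mutant libraries.

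Whether the label difference itself changed between the days was tested as an interaction, which 2.13% of all genes passed (0.884% higher and 1.24% lower). By edgeR's quasi-likelihood test 0 of the 10 genes passed, and 4 had an unadjusted p under 0.05: Axin2 (log2 -0.26, SE 0.08, adjusted p = 0.13), Notum (-1.60, SE 0.55, adjusted p = 0.16), Rnf43 (-0.24, SE 0.07, adjusted p = 0.091) and Znrf3 (-0.25, SE 0.08, adjusted p = 0.092). DESeq2 called 1 gene, Rnf43 (adjusted p = 0.043), and edgeR on the 4 conditioned medium groups alone called 3, Axin2 (0.026), Rnf43 (0.033) and Znrf3 (0.028). For Rnf43 and Znrf3 a label difference was thus called on day 4 and not on day 2, without the difference between the days passing in the fit of all groups.

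The label difference on day 2 differed between media for 8 of the 10 genes, each with a lower value in conditioned medium. Of all genes, 53.1% passed this interaction (26.7% higher and 26.4% lower), which uses the libraries of the day 2 comparisons above. Wif1, which is among the 8, passed the filter on low counts through the untreated Apc mutant libraries alone, so its call lends this count no support. Side by side, the log2 fold change of Apc mutant over WT label in conditioned medium and in untreated organoids was -0.36 and 2.13 for Axin2, -1.18 and 8.25 for Nkd1, and -0.91 and 7.33 for Apcdd1. For Rnf43 the pair was -0.00 and 2.73, for Znrf3 -0.04 and 1.97, and for Sp5 -0.66 and 1.84. For Notum it was 0.83 and 9.96, and for Wif1, with a single read in untreated WT organoids, 0.39 and 9.32. The medium, the sex chromosome expression and the RNA content of the libraries cannot be told apart in this comparison. In conditioned medium the label may also name the source of the medium rather than the cells. The interaction may thus set unlike contrasts against each other.

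Across the 6 groups Axin2 was highest in untreated Apc mutant organoids at 724 ± 74 CPM (SD, n = 2). It was followed by libraries labelled WT in conditioned medium on day 2 (346 CPM) and day 4 (282 CPM), libraries labelled Apc mutant on day 2 (269 CPM) and day 4 (183 CPM), and untreated WT organoids (165 CPM). Neighbours in this order overlapped at 2 places: libraries labelled WT on day 4 (274 to 290 CPM) with those labelled Apc mutant on day 2 (256 to 281 CPM), and libraries labelled Apc mutant on day 4 (171 to 189 CPM) with untreated WT organoids (156 to 174 CPM). Rnf43 averaged 132 to 157 CPM in the 4 conditioned medium groups and 80.4 CPM in untreated WT organoids, where it was lowest. Znrf3 averaged 56.4 to 69.6 CPM in the conditioned medium groups and 25.9 CPM in untreated WT organoids. Sp5, by contrast, averaged 1.09 to 1.89 CPM in the conditioned medium groups and 3.03 CPM in untreated WT organoids. The per-length ratio of Rnf43 to Znrf3 averaged 2.55 to 2.82 in the 4 conditioned medium groups, that of Nkd1 to Axin2 0.00724 to 0.0201, and that of Notum to Axin2 0.00251 to 0.00654, all below the 6.38, 0.810 and 0.898 of untreated Apc mutant organoids.

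The genes whose 6 group means were most like those of Axin2, by the root mean square difference of log2 CPM centred on each gene's own mean, were Mex3a (0.13), Dach1 (0.14), Abhd15 (0.16), Nupr1l (0.17) and Dmwd (0.17). Mex3a, which encodes an RNA-binding protein, averaged 73.1 CPM in untreated Apc mutant organoids, 20.4 to 30.3 CPM in the conditioned medium groups and 17.8 CPM in untreated WT organoids. Dach1, a transcriptional cofactor, averaged 125, 40.6 to 56.0 and 30.3 CPM in the same order. For Notum the nearest genes were Dtna (0.34), Hoxa9 (0.37), Cdh13 (0.44), Serpinb11 (0.45) and Fn1 (0.51). Fn1, which encodes the matrix protein fibronectin, averaged 112 CPM in untreated Apc mutant organoids and at most 0.164 CPM in the other 5 groups, and Hoxa9, a homeobox transcription factor, averaged 43.5 CPM and at most 0.126 CPM. These likenesses rest on 6 group means each, which for Notum are set largely by the untreated Apc mutant group.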

How the data were processed

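The authors deposited raw read counts per Ensembl gene, 1 table per library. The submitters' processing notes name HTSeq 0.6.1p1, HISAT2 2.1.0, Trimmomatic 0.36 and GRCm38; no source used here gives the strand setting or annotation release. The labels' protocols name a kit that depletes ribosomal RNA. Symbols, coordinates and exon lengths came from GENCODE M21 (98.2% of identifiers had a symbol). Summary lines were not used for scaling or testing. In them, reads outside features made up 14.4 to 19.2% of reads in conditioned medium libraries and 4.78 to 7.32% in untreated libraries, reads with several alignments 26.5 to 33.3% and 36.5 to 38.9%, and ambiguous reads 0.460 to 0.599% in all 16.

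Groups followed the labels; the design text of the series lists other group sizes and days. Counts were tested with edgeR 4.0.16 (limma 3.58.1, R 4.3.3), by the quasi-likelihood test in 1 fit of 6 groups with TMM scaling, filterByExpr and Benjamini-Hochberg adjustment over 16510 genes, which left 10 residual degrees of freedom. The spread was shared over groups (common biological coefficient of variation 5.96%). The SE is the log2 fold change over the square root of F. Where a group held few reads, the SE and its 95% interval could be narrower than counting error alone. This was so in untreated organoids for Nkd1, Apcdd1, Notum and Wif1. Code was tested on simulated data. CPM uses TMM-scaled totals, and RPKM divides it by exon length. A floor is 3 counts over a group, and a bound set against it takes the mean of the other group as exact. Floors and exact intervals cover counting error only. Alternatives were other scalings, DESeq2 1.42.0, no filter, only the groups compared, a replicate block, and leaving out each library.

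The 10 genes and the lists were chosen with earlier results of these data known. Named by rule were all 10 genes, the 5 nearest to Axin2 and to Notum, and the 2 largest called changes per list and comparison. Libraries within a group were not duplicates (chi-square per degree of freedom 3.30 to 42.2, the highest, 39.9 and 42.2, both with replicate 1 of the libraries labelled WT on day 4).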

Additional observations from a re-analysis of the deposited data

Results flagged for a closer look

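On day 2 the effect of the Apc mutant label differed between conditioned medium and untreated organoids for 8 of the 10 genes by an interaction test in edgeR. The log2 difference of the label effects, conditioned medium minus untreated, was -9.43 for Nkd1, -9.12 for Notum, -8.93 for Wif1 and -8.24 for Apcdd1. It was -2.74 for Rnf43, -2.50 for Sp5, -2.49 for Axin2 and -2.00 for Znrf3. The adjusted p lay between 5.4e-20 for Nkd1 and 4.7e-07 for Sp5. The Wif1 value rests on 1 read in untreated WT organoids, and Wif1 passed the filter on low counts through the untreated Apc mutant libraries alone. Medium cannot be told apart from the RNA content and sex chromosome expression of these libraries. The label may name the cells in untreated organoids and the source of the medium in conditioned medium, so the 2 label effects may be unlike contrasts.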

How the results depend on the processing

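Of the gene-wise values under the alternatives, none changed sign past the threshold. In untreated organoids Dkk2 lost its call under DESeq2, and Dkk3 gained one with library totals alone (adjusted p = 0.039) and without replicate 1 of the libraries labelled WT on day 4 (0.039). Library totals alone moved the share of called genes that were higher to 62.7% from 51.8% in untreated organoids, to 64.5% from 51.2% and to 65.3% from 50.1% in conditioned medium on day 2 and day 4, to 40.8% from 51.7% between days in libraries labelled WT, and to 40.0% from 50.3% in the interaction with medium. Under library totals alone the median log2 fold change of all genes was 0.17 in untreated organoids, against 0 with TMM scaling. In the interaction with medium it was -0.15, against -0.0155. Between days in libraries labelled WT, 1 of the 10 genes was called under library totals alone and 1 with only the groups compared. In the interaction with day, 1 was called by DESeq2, 1 with no filter (Axin2, 0.049) and 3 with only the groups compared, and all genes called came to 568 with only the groups compared and 188 with a replicate block, against 351. Leaving out each library gave, of the 10 genes, 9 to 10 in untreated organoids, 2 to 4 and 4 to 5 in conditioned medium on day 2 and day 4, 2 to 3 and 1 to 3 between days in libraries labelled Apc mutant and WT, 0 to 0 in the interaction with day and 8 to 8 in that with medium. Over all genes the ranges were 9232 to 10312, 1725 to 3063, 1901 to 2795, 3110 to 4197, 2832 to 4226, 237 to 421 and 8055 to 8717 in the same order. The 1725 came without replicate 3 of the libraries labelled Apc mutant on day 2, and 1668 of them were among the 2755 called with it. The cause was not tested. Replicate numbers gave no sign of a pairing, with 0 of 8 same-numbered pairs at a correlation of deviations over 0.1 (-0.149 to 0.042). In the untreated groups of 2 libraries the deviations mirror each other. The -0.149 of same-numbered pairs there fixes the crossed pairs at 0.149, so these correlations cannot exclude a pairing. The replicate block gave 9, 2, 5, 2, 2, 0 and 8 of the 10 genes in the 7 comparisons in the same order; the calls it ended were Apcdd1 on day 2 (adjusted p = 0.07) and Rnf43 between days (0.073). A crossed pairing of the untreated libraries, chosen after seeing the data, called 10537 genes and 9 of the 10. Genes with few reads (Dkk3, Wif1, Notum in conditioned medium) are limited by depth.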

Other observations

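Notumos, an antisense gene over Notum, was highest where Notum was: it had 133 and 166 reads in untreated Apc mutant organoids, 2 reads in all over the 12 conditioned medium libraries, and 0 in untreated WT organoids. Gm11670, antisense to Axin2, had 1 to 12 reads in each conditioned medium library and 0 in the 4 untreated libraries. Without the strand setting these reads cannot be assigned to either partner.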
